A study of Homo sapiens with 6 samples.

Results

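Cholesterol and fatty acids are built from acetyl-CoA along a pair of routes that share a set of transcription factors. In the sterol route, acetyl-CoA becomes mevalonate, then the isoprenoid chain farnesyl diphosphate, then squalene and lanosterol, and at last cholesterol. SREBP-2, made by SREBF2, mainly drives the genes of sterol synthesis, and SREBP-1, made by SREBF1, mainly those of fatty acid synthesis. Both proteins wait in the endoplasmic reticulum bound to SCAP, which INSIG proteins hold there while sterols are plentiful.

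Here 33 genes of these routes and of their control, listed by symbol, were followed in HEK-293T cells, an immortalized line from human embryonic kidney. All 33 were found in the table of 58870 genes, and all 33 were among the 15088 genes tested. They fell into 9 genes from acetyl-CoA to squalene, 10 from squalene to cholesterol, 6 of SREBP control and sterol transfer, and 8 of fatty acid synthesis. The comparison was between 3 libraries of WT cells (labelled Thumpd+/+) and 3 of THUMPD1 KO cells (labelled Thumpd-/-). THUMPD1 is the adapter that the acetyltransferase NAT10 needs to modify tRNA. The KO cells were made with CRISPR-Cas9 and a pair of guide RNAs and were expanded from a single sorted cell, so that the genotype and the clone cannot be told apart. Both genotypes were grown in DMEM with no further treatment, and total RNA went into a stranded paired-end preparation that removes ribosomal RNA and was read on an Illumina NovaSeq. The labels give replicate numbers 1 to 3 in each genotype and do not say whether the libraries came from separate cultures, so p-values measure the spread between these libraries.

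The libraries held 32225646 to 44099898 counts, and mitochondrial genes took 2.81 to 3.32% of them. A member held between 367 and 41338 counts in a library. THUMPD1 itself measured 77.3, 84.6 and 80.8 CPM (counts scaled to the library's total, where 1 CPM was 32.2 to 44.1 counts) in WT libraries 1 to 3 and 10.2, 12.0 and 11.0 CPM in the KO libraries. Its log2 fold change was -2.87 (SE 0.085, adjusted p = 3.17e-08 in limma-voom with Benjamini-Hochberg adjustment over all genes tested), while the exact two-sided permutation p of its CPM was 0.1, the smallest that 3 libraries against 3 allow. Of 6 kidney lineage genes, 5 were tested and PAX8 was near 0, and of 6 mature nephron genes none was tested, with UMOD and AQP2 at 0 in every library.

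Sterol regulatory elements, CCAAT boxes and GC boxes are the letters through which SREBPs and their partner factors NF-Y and Sp1 are known to act, and the stretches before the start of 4 called genes are shown for that reason. They were taken from RefSeq promoters on GRCh38.p14, which reach from 250 bases before to 50 after a listed start. Shown are the called genes with 1 listed start and at least 200 bases before it outside exons of protein-coding genes. All are written 5′ to 3′ on the strand of the gene, and capitals mark TCACNCCAC (the sterol regulatory element searched), CCAAT and GGGCGG on either strand.
SREBF2: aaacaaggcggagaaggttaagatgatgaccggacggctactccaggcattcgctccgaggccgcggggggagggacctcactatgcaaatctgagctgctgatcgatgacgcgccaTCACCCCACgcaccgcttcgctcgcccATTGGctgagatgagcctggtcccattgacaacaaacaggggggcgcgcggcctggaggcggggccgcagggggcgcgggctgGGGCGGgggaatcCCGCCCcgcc
SREBF1: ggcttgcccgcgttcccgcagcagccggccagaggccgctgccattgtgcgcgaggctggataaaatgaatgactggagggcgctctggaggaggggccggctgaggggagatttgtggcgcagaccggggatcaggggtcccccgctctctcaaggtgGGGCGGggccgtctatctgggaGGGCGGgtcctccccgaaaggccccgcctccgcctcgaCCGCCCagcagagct
MVK: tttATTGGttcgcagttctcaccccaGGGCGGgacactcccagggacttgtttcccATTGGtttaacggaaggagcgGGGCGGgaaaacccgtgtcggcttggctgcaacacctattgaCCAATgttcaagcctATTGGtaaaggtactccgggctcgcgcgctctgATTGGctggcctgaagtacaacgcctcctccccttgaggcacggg
HSD17B7: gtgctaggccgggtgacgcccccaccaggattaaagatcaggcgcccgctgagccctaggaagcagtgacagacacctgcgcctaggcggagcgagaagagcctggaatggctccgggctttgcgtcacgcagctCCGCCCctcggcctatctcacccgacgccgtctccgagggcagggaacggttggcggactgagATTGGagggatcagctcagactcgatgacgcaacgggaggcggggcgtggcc
The SREBF2 stretch is chr22:41832855-41833104 on the plus strand and overlaps an exon of the antisense lncRNA SREBF2-AS1. The SREBF1 stretch is chr17:17837003-17837236 on the minus strand. The MVK stretch is chr12:109573581-109573792 on the plus strand, outside the exons of MVK and of its neighbour MMAB, which both reach into the window. The HSD17B7 stretch is chr1:162790452-162790701 on the plus strand and touches no annotated exon. TCACNCCAC was found in the SREBF2 promoter alone among 29 members with a RefSeq promoter, as TCACCCCAC starting 133 bases before the start. That is 1 of the 42 promoters of these members, or 2.38%, against 396 of 35116 promoters in all (1.13%). CCAAT was found on either strand in 26 of the 42 promoters of these members, or 61.9%, and in 34.6% of all promoters. MVK held 5 such boxes. GGGCGG was found in 37 of the 42, or 88.1%, and in 45.0% of all promoters. All promoters here are those of 27305 genes, whether or not they were tested, while every member was tested. A gene can have several promoters, which can overlap. The shares among tested genes alone were not taken, so the sets are unlike. ACAT2, FDFT1, SQLE and FASN had no entry. A match is a description of letters, and no match says only that these letters are not in this window.

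Per length of exon, the genes differed widely in level. The length is that of all annotated exons of a gene merged, which can exceed the length of its transcripts. SCD, the desaturase that makes oleate, was the most abundant in WT cells at 183 ± 3.9 CPM per kilobase (SD, n = 3). ACLY, which makes cytosolic acetyl-CoA from citrate, followed at 108 ± 2.1 and FASN, the fatty acid synthase, at 82.3 ± 3.1 CPM per kilobase. Of the sterol genes, SQLE (52.3 ± 3.1) and CYP51A1 (51.3 ± 0.32) were the highest on this scale and did not differ beyond their spread, nor did INSIG1 (48.4 ± 3.3) differ from SQLE. ACSS2, which activates acetate, at 2.53 ± 0.037 and FADS2, a fatty acid desaturase, at 1.88 ± 0.12 CPM per kilobase were the lowest. The order depends on these lengths, as by CPM FADS2 (19.8) lay above PMVK (12.7) and ACSS2 (13.3) in WT cells. SREBF2 stood at 25.1 ± 1.8 CPM per kilobase and SREBF1 at 4.81 ± 0.83.

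The question asked of each gene was whether its RNA level differed between genotypes. In THUMPD1 KO cells 10 of the 33 genes were lower and 2 were higher, and the others were not called. The 10 lower genes were MVK, FDPS, SQLE, CYP51A1, TM7SF2, HSD17B7, SREBF1, SREBF2, FASN and FADS1, and the 2 higher were GGPS1 and ELOVL6. The changes were small, with called log2 fold changes between -0.41 and 0.21. The call rule was an adjusted p under 0.05 in limma-voom. By this rule 36.4% of the genes were called, against 26.7% of all genes tested. For lower calls the shares were 30.3% against 13% of all genes, and for higher calls 6.06% against 13.7%. Of the 33, 29 had a negative log2 fold change, with a median of -0.12 against 0.016 over all genes tested, of which 7002 of 15088 were negative. Together the 33 genes took 0.507, 0.508 and 0.522% of all counts in WT libraries 1 to 3 and 0.480, 0.466 and 0.476% in the KO libraries, without overlap. The CPM of the genotypes did not overlap in 14 of the 33 genes, or 42.4%, which is near the 42.2% of all genes tested. KO was the lower genotype in 12 of these 14, or 36.4% of the members, against 17.6% of all genes.

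With the replicate number as a block, 16 of the 33 were called (48.5% against 35.1% of all genes) and 14 of them were lower (42.4% against 16.7%). The block added HMGCS1, FDFT1, LSS and DHCR7, all lower, and removed none. It changed their SEs little, from 0.091, 0.054, 0.043 and 0.044 without it to 0.090, 0.053, 0.039 and 0.042 with it. Without the block, SREBF2, HSD17B7, SQLE, CYP51A1 and GGPS1 were also called in each of 17 alternative analyses. The count of 12 fell to 6 (18.2% of the members) without WT 3, KO 2 or KO 3, where 18.1, 17.6 and 18.6% of all genes were called, so that the share of members was near that of all genes. Of these 6, 5 were lower (15.2%), against 9.58, 8.9 and 9.38% of all genes. The count was 8 without WT 2 (24.2% against 21.5%), 16 without WT 1 (48.5% against 28.1%) and 12 without KO 1 (36.4% against 24%).

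In a further fit, the trend on GC content and length was removed from each library's deviations from the gene means. Then 10 of the 33 were called (30.3% against 29.6% of all genes), and 11 together with the block (33.3% against 37.5%), near or under the share of all genes. Lower calls were 9 of 33 (27.3% against 14.7%) and, with the block, 10 of 33 (30.3% against 18.4%). The median log2 fold change of the members was -0.075 without the block, against 0.0074 over all genes. All adjusted p-values below are from limma-voom with Benjamini-Hochberg adjustment over all genes tested.

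**Figure D1:**
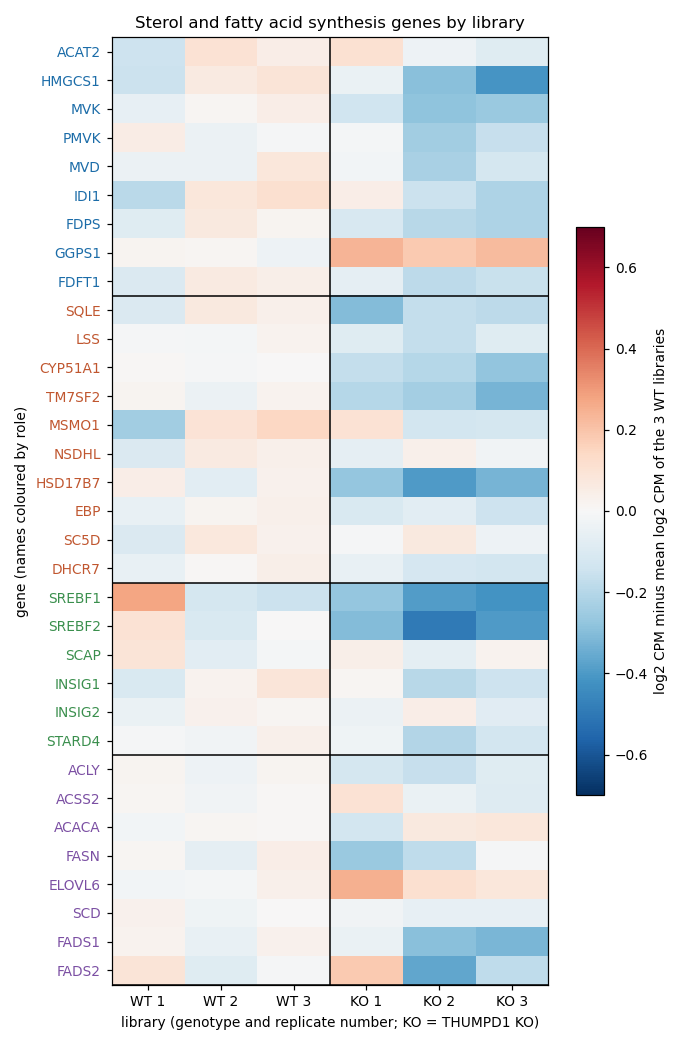
Log2 CPM of each gene (rows, names coloured by role) in each library (columns), as the difference from the mean of the 3 WT libraries. Blue fills most of the KO columns from SQLE to HSD17B7 and in the SREBF1 and SREBF2 rows, while GGPS1 and ELOVL6 are red there, and WT 1 is blue where KO 1 is pale for HMGCS1, IDI1 and MSMO1.

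**Figure D2:**
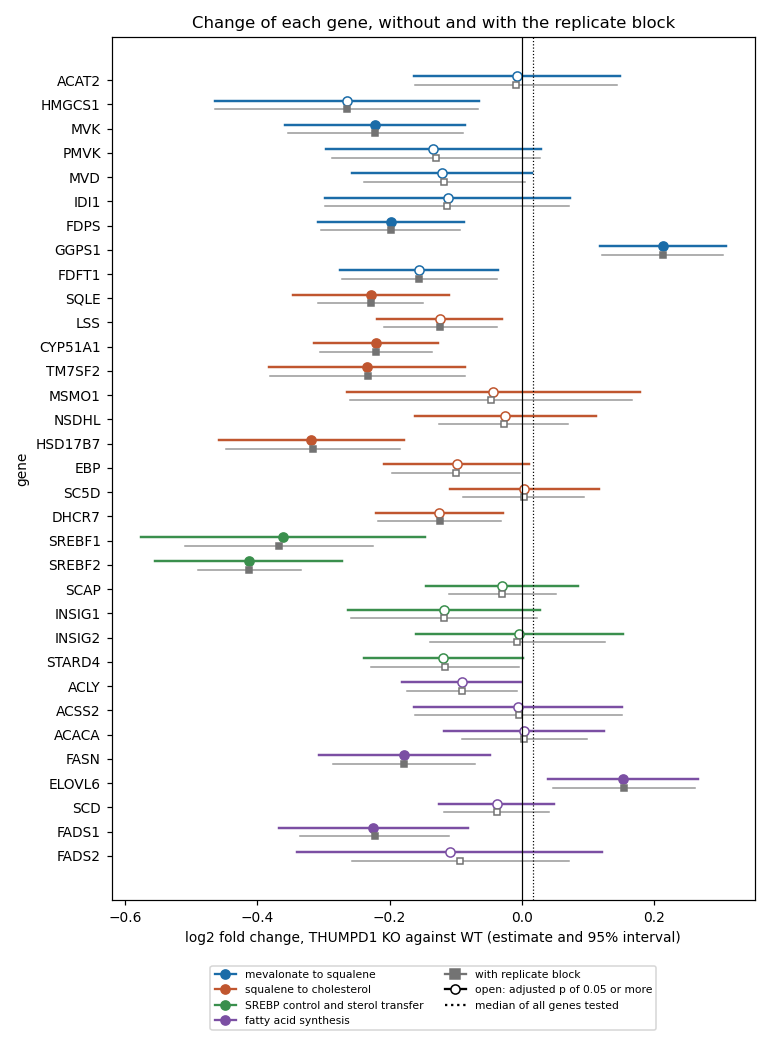
Log2 fold change of THUMPD1 KO against WT with its 95% interval for each gene, without (coloured circles) and with (grey squares) the replicate block. Filled symbols have an adjusted p under 0.05, 29 of 33 estimates lie below 0, and the dotted line is the median of all genes tested, 0.016.

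In the limma-voom fit without the block, the SREBP genes themselves had the largest log2 fold changes of the genes followed. SREBF2 measured 216, 188 and 202 CPM in WT libraries 1 to 3 and 163, 143 and 153 CPM in KO libraries 1 to 3. All KO libraries lay below all WT libraries, and the ratio was alike in the 3 replicate numbers, with log2 ratios of -0.41, -0.41 and -0.42. SREBF2 fell by 24.9% (log2 fold change -0.41, 95% interval -0.55 to -0.27, adjusted p = 0.00102), and with the block its adjusted p was 1.91e-05. SREBF1 measured 47.5, 36.0 and 35.4 CPM in WT and 32.5, 29.9 and 29.4 CPM in KO. WT 1 stood above the other two WT libraries, and the genotypes did not overlap. SREBF1 fell by 22.1% (log2 fold change -0.36, interval -0.58 to -0.15, adjusted p = 0.0192). The call was lost without KO 2 (adjusted p = 0.072) or KO 3 (adjusted p = 0.0781) and with no CPM filter (adjusted p = 0.0572). The order of the genes was not kept in every fit. Without both libraries of number 1, a fit added after the data were seen, SREBF1 had -0.26, SREBF2 -0.42 and HMGCS1 -0.45. After removal of the GC and length trend, HSD17B7 had the most negative estimate, -0.38.

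SREBF2 lies on chromosome 22 (41833105 to 41907306, plus strand, GRCh38), whose genes were lower in KO cells as a whole. The other 374 tested genes of that chromosome had a median log2 fold change of -0.34, against 0.021 for the genes elsewhere. SREBF2 at -0.41 stood at the 32.9th percentile of these genes. Within 5 Mb of it, 92.3% of 142 tested genes were negative, with a median of -0.31. The part of this shift of the chromosome in the change of SREBF2 was not tested. SREBF1 lies on chromosome 17, where the 84 tested genes within 5 Mb had a median of 0.033.

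**Figure D3:**
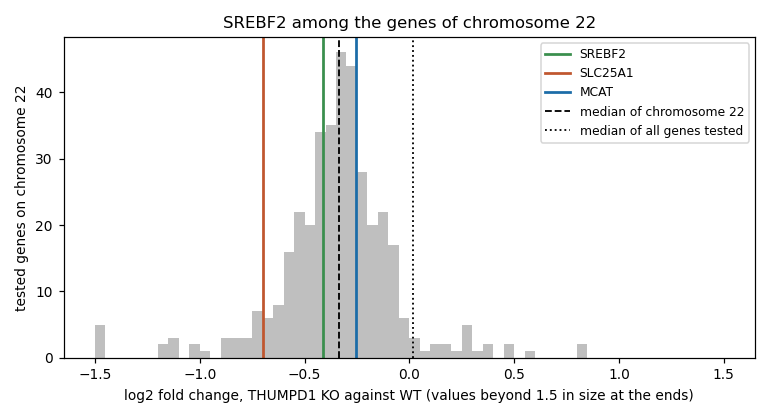
Number of tested chromosome 22 genes (grey bars, bins of 0.05) by log2 fold change of THUMPD1 KO against WT. Coloured lines mark SREBF2 (-0.41), SLC25A1 (-0.70) and MCAT (-0.25), the dashed line marks the chromosome's median near -0.34, and most bars lie left of the dotted median of all genes, 0.016.

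The other 4 genes of SREBP control were not called. SCAP, the escort of SREBPs, had a log2 fold change of -0.03 (interval -0.15 to 0.08) and INSIG2, a retention protein, one of -0.0039 (-0.16 to 0.15). INSIG1, the other retention protein and itself an SREBP target, had -0.12 (-0.26 to 0.03), and STARD4, which carries cholesterol through the cytosol, -0.12 (-0.24 to 0.0019). The list of 6 thus held 2 lower calls, with a median of -0.12. The share called was 33.3%, all lower, against 26.7% called and 13% lower over all genes.

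From squalene to cholesterol, 4 of 10 genes were lower and none was higher, with a median log2 fold change of -0.12. The share called was 40%, all lower, against 26.7% called and 13% lower over all genes. HSD17B7, a 3-ketosteroid reductase of cholesterol synthesis, measured 21.0, 19.3 and 20.8 CPM in WT and 16.9, 15.5 and 16.2 CPM in KO. The genotypes were apart by more than the range of either. It fell by 19.8% (log2 fold change -0.32, interval -0.46 to -0.18, adjusted p = 0.0043). A pair of its pseudogene copies held 9.40% as many counts as the gene, so that reads may have been shared between them. SQLE, the squalene epoxidase, measured 210, 235 and 230 CPM in WT and 182, 201 and 198 CPM in KO. In both genotypes library 1 was the lowest, and no KO library reached a WT library. SQLE fell by 14.6% (log2 fold change -0.23, interval -0.35 to -0.11, adjusted p = 0.00992), and its adjusted p with the block was 0.000874. CYP51A1, the lanosterol demethylase, measured 215, 212 and 214 CPM in WT and 191, 187 and 177 CPM in KO. Its WT libraries were within 3 CPM of each other and all KO libraries were lower. CYP51A1 fell by 14.2% (log2 fold change -0.22, interval -0.31 to -0.13, adjusted p = 0.00361). TM7SF2, a sterol reductase, measured 17.3, 16.6 and 17.4 CPM in WT and 14.9, 14.5 and 13.7 CPM in KO. Its groups did not overlap, and it fell by 14.9% (log2 fold change -0.23, interval -0.38 to -0.09, adjusted p = 0.0256). It shares same-strand sequence with VPS51, so its counts are uncertain. It kept the call in 10 of 17 alternatives and lost it without WT 2, WT 3, KO 1 or KO 3 (adjusted p = 0.0522 to 0.102). After removal of the GC and length trend its log2 fold change was -0.15 (adjusted p = 0.129), and with no CPM filter its adjusted p was 0.0619.

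LSS and DHCR7 were called with the block only. LSS, the lanosterol synthase, measured 84.0, 83.6 and 85.7 CPM in WT and 79.6, 75.1 and 79.6 CPM in KO. The groups did not overlap but were close (log2 fold change -0.12, interval -0.22 to -0.03, adjusted p = 0.053 without and 0.0306 with the block). DHCR7, which makes cholesterol from its last precursor, measured 122, 128 and 130 CPM in WT and 122, 117 and 116 CPM in KO. KO 1 was at the level of WT 1, and the other KO libraries lay below all WT libraries (log2 fold change -0.12, interval -0.22 to -0.03, adjusted p = 0.0561 without and 0.0418 with the block). The remaining 4 genes of this stretch, MSMO1, NSDHL, EBP and SC5D, had log2 fold changes between -0.10 and 0.0033. They are demethylating, isomerizing and desaturating enzymes of late sterol synthesis, and the widest interval, that of MSMO1, ran from -0.26 to 0.18.

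From acetyl-CoA to squalene, 2 of 9 genes were lower and 1 was higher, with a median log2 fold change of -0.13. The share called was 33.3% against 26.7% of all genes, and the share lower 22.2% against 13%. FDPS, the farnesyl diphosphate synthase, measured 122, 135 and 131 CPM in WT and 119, 113 and 111 CPM in KO. WT 1 was the lowest of WT and KO 1 the highest of KO, and they nearly met. FDPS fell by 12.8% (log2 fold change -0.20, interval -0.31 to -0.09, adjusted p = 0.0138). Its call was lost without WT 2, WT 3, KO 2 or KO 3, at adjusted p-values of 0.0525 to 0.0622. MVK, the mevalonate kinase, measured 26.6, 28.0 and 28.7 CPM in WT and 25.2, 22.8 and 23.1 CPM in KO. The libraries of number 1 again lay nearest to each other. MVK fell by 14.2% (log2 fold change -0.22, interval -0.36 to -0.09, adjusted p = 0.0223), and without any of the same 4 libraries its adjusted p was 0.0689 to 0.0944. Its call was also lost after removal of the GC and length trend (log2 fold change -0.17, adjusted p = 0.0745, or 0.0537 with the block) and with no CPM filter (adjusted p = 0.0593). GGPS1, which leads farnesyl diphosphate away from sterols to the geranylgeranyl chain, went the other way, with 54.3, 54.2 and 52.4 CPM in WT and 63.1, 60.9 and 62.5 CPM in KO. All KO libraries were higher, and GGPS1 rose by 15.9% (log2 fold change 0.21, interval 0.12 to 0.31, adjusted p = 0.00472).

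HMGCS1, the cytosolic HMG-CoA synthase, had the most negative estimate of the genes called only with the block. It measured 175, 204 and 207 CPM in WT and 189, 159 and 146 CPM in KO. KO 1 lay above WT 1, while KO 2 and KO 3 lay below all WT libraries. The log2 fold change was -0.26 (interval -0.46 to -0.06, adjusted p = 0.0517), and the adjusted p with the block was 0.0426. FDFT1, the squalene synthase, measured 118, 133 and 131 CPM in WT and 121, 112 and 114 CPM in KO, with KO 1 above WT 1 and the others apart. Its log2 fold change was -0.16 (interval -0.27 to -0.04, adjusted p = 0.056 without and 0.0428 with the block). The other 4 genes of this stretch were not called. They were ACAT2, the cytosolic thiolase (-0.0077, interval -0.16 to 0.15), PMVK (-0.13) and MVD (-0.12), which act on mevalonate phosphates, and IDI1, the isopentenyl diphosphate isomerase (-0.11, interval -0.30 to 0.07).

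Of the 8 genes of fatty acid synthesis, 2 were lower and 1 was higher, with a median log2 fold change of -0.065. The share called was 37.5% against 26.7% of all genes, and the share lower 25% against 13%. FASN measured 776, 735 and 792 CPM in WT and 641, 678 and 762 CPM in KO. KO 3 lay within the WT range. FASN fell by 11.6% (log2 fold change -0.18, interval -0.31 to -0.05, adjusted p = 0.0446), and it kept the call in 6 of 17 alternatives. Without WT 1, WT 3, KO 1 or KO 2 its adjusted p was 0.085 to 0.134, and in edgeR it was 0.0798. After removal of the GC and length trend its log2 fold change was -0.053 (adjusted p = 0.496). FADS1, the delta-5 desaturase of polyunsaturated chains, measured 100.3, 94.9 and 100.5 CPM in WT and 95.3, 80.3 and 79.1 CPM in KO. KO 1 lay just above WT 2 and the other KO libraries lay below. FADS1 fell by 14.4% (log2 fold change -0.22, interval -0.37 to -0.08, adjusted p = 0.0261), and its adjusted p was 0.0827 to 0.113 without WT 3, KO 2 or KO 3 and 0.0645 with no CPM filter. ELOVL6, the elongase of palmitate, measured 62.9, 63.2 and 65.3 CPM in WT and 75.8, 69.0 and 67.4 CPM in KO. All KO libraries were higher, KO 1 by the most, and ELOVL6 rose by 11.2% (log2 fold change 0.15, interval 0.04 to 0.27, adjusted p = 0.0483). It kept the call in 2 of 17 alternatives and lost it without any 1 of the libraries (adjusted p = 0.0523 to 0.137), in edgeR (adjusted p = 0.0869) and in DESeq2 (adjusted p = 0.132). ACLY (-0.09), ACSS2 (-0.0060), ACACA, the acetyl-CoA carboxylase (0.0036), SCD (-0.04) and FADS2 (-0.11) were not called, and of these FADS2 had the widest interval, -0.34 to 0.12.

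**Figure D4:**
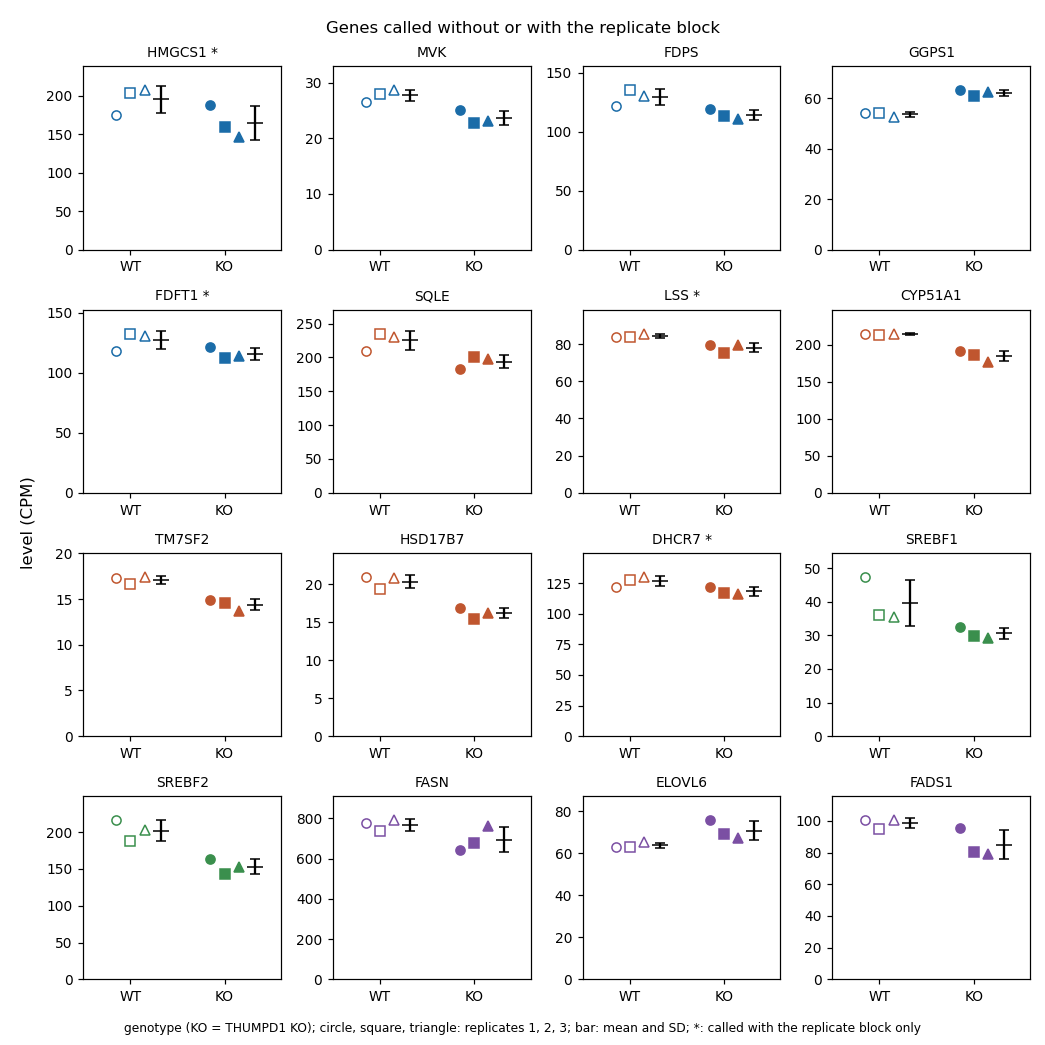
CPM of the 16 genes called without or with the replicate block in each library (open symbols WT, filled symbols THUMPD1 KO), with the mean and SD of each genotype (n = 3). SREBF2 lies between 188 and 216 CPM in WT and between 143 and 163 CPM in KO, while the circles of HMGCS1, FDFT1 and DHCR7 (replicate 1) overlap between genotypes.

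Over the 17 genes called neither without nor with the block, log2 fold changes ran from -0.13 to 0.0036 and adjusted p-values from 0.123 to 0.974. Their 95% intervals together reached from -0.34 to 0.18.

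The difference between genotypes was not alike in the 3 replicate numbers. Within number 1 the median log2 ratio of KO over WT over the 33 genes was -0.04 and 19 of them were lower, within number 2 it was -0.16 with 29 lower, and within number 3 it was -0.18 with 30 lower. Over all genes tested these medians were 0.018, 0.013 and 0.012. From acetyl-CoA to squalene the medians were 0.02, -0.24 and -0.22. HMGCS1 had log2 ratios of 0.10, -0.37 and -0.53, MSMO1 of 0.36, -0.22 and -0.28, and IDI1 of 0.22, -0.24 and -0.33. These 3 genes were higher in KO than in WT within number 1 and lower within the other numbers. On the quantile-normalized log2 values, WT 1 was the lowest WT library and KO 1 the highest KO library in 13 of the 33 genes. That is 39.4%, against 11.0% of all genes tested. They were ACAT2, HMGCS1, MVK, MVD, IDI1, FDPS, FDFT1, MSMO1, DHCR7, INSIG1, STARD4, ACSS2 and ELOVL6. By CPM, WT 1 was not the lowest WT library for MVD, STARD4 or ACSS2. SREBF1 differed most within number 1, with log2 ratios of -0.56, -0.24 and -0.27, and so did FASN, with -0.33, -0.14 and -0.07.

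With both libraries of number 1 left out, a choice made after this pattern was seen, 21 of the 33 genes were called (63.6% against 32.4% of all genes tested) and 20 of them were lower (60.6% against 15.7%). From acetyl-CoA to squalene 8 of 9 were then called, 7 of them lower. HMGCS1 had a log2 fold change of -0.45 (adjusted p = 8.17e-05), MSMO1 of -0.25 (adjusted p = 0.00173) and INSIG1 of -0.24 (adjusted p = 0.00179) in that fit. FASN (-0.11, adjusted p = 0.11) and ELOVL6 (0.09, adjusted p = 0.132) lost their calls. What set the libraries of number 1 apart was not tested.

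**Figure D5:**
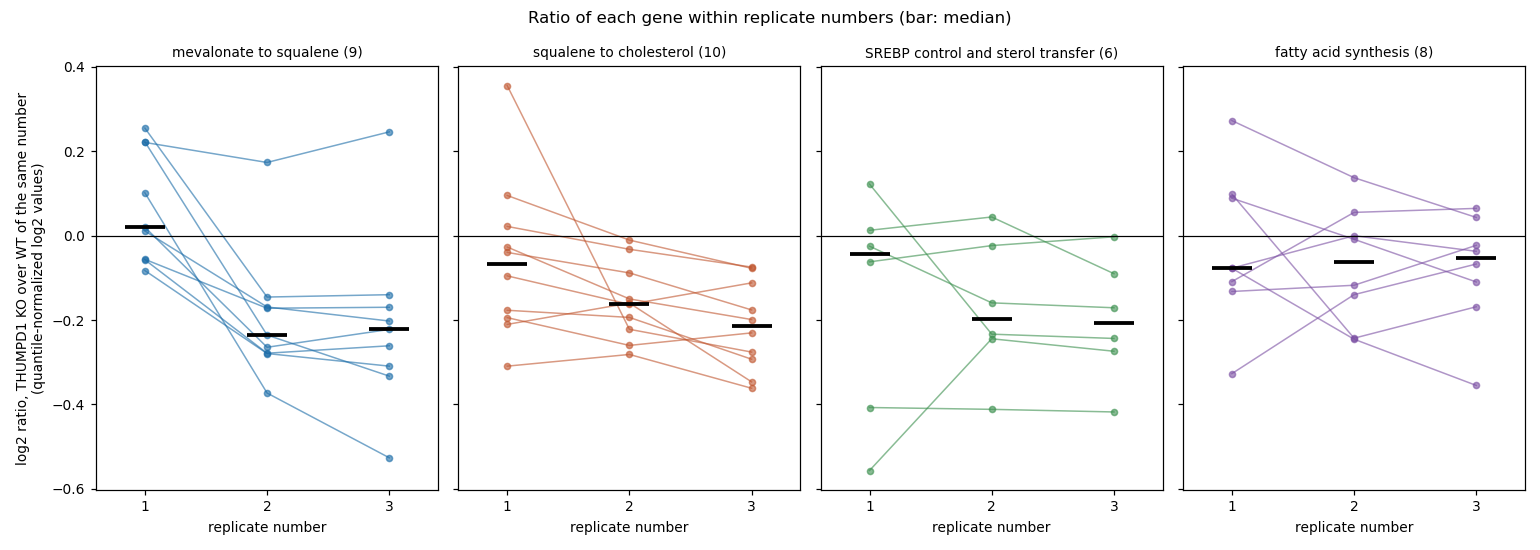
Log2 ratio of THUMPD1 KO over WT of the same replicate number for each gene (points, quantile-normalized log2 values), by role, with lines joining the 3 values of a gene and black bars for medians. The numbers have no order, and the medians of the first panel are 0.02, -0.24 and -0.22.

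Genes around these routes were described from 5 further lists. The shares called in these lists are to be read against the 26.7% of all genes. Of 14 other genes of SREBP processing, 2 were higher and 3 lower (35.7% called), with a median log2 fold change of 0.022. MBTPS2, the site-2 protease that frees SREBPs, measured 63.1, 56.2 and 54.2 CPM in WT and 71.2, 69.0 and 68.0 CPM in KO, without overlap (log2 fold change 0.27, adjusted p = 0.00529). SEC24D, a cargo subunit of COPII coats, was lower (-0.20, adjusted p = 0.0257). Of 17 genes of sterol trafficking, storage and efflux, 1 was higher and 1 lower (11.8% called, under the share of all genes), with a median of -0.02. ABCG1, a sterol exporter, was at a low level of 2.54, 1.38 and 1.77 CPM in WT and 1.39, 0.612 and 0.745 CPM in KO, where KO 1 just exceeded WT 2 (log2 fold change -1.25, adjusted p = 0.0104). NR1H3, the sterol sensor LXR-alpha, was higher (0.37, adjusted p = 0.0428), and TMEM97, which regulates NPC1, was at -0.15 with an adjusted p of 0.094. The call of NR1H3 was lost in DESeq2, with no CPM filter, and without WT 2, KO 2 or KO 3.

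Of 13 genes that use isoprenoids for other products than sterols, 4 were higher and 1 lower (38.5% called), with a median log2 fold change of 0.06. FNTA, the shared subunit of farnesyl and geranylgeranyl transferases, measured 62.6, 64.2 and 61.9 CPM in WT and 75.2, 77.4 and 73.8 CPM in KO, without overlap (log2 fold change 0.27, adjusted p = 0.00154). ICMT, which methylates prenylated proteins (0.22, adjusted p = 0.00452), and DHDDS, a subunit of the dolichol-chain synthase (0.26, adjusted p = 0.0104), were higher too. Of 28 further genes of fatty acid synthesis, elongation and activation, 25 were tested, 3 were higher and 8 lower (44% called), with a median of -0.07. SLC25A1, which exports citrate from mitochondria, measured 65.8, 63.0 and 66.2 CPM in WT and 44.5, 35.7 and 40.9 CPM in KO (log2 fold change -0.70, adjusted p = 4.58e-05). It lies on chromosome 22 as well, at the 8.29th percentile of its genes, and MCAT (-0.25), of mitochondrial fatty acid synthesis, lies there at the 68.2th percentile. ELOVL5, an elongase of polyunsaturated chains, was higher (0.27, adjusted p = 0.000912), and ACSL4, which activates arachidonate, was lower (-0.27, adjusted p = 0.00196). Of 16 genes of mitochondrial fatty acid oxidation, 1 was higher and 3 lower (25% called, near the share of all genes), with a median of -0.10. They included ACADS, the short-chain acyl-CoA dehydrogenase (-0.39, adjusted p = 0.00433), SLC25A20, the carnitine carrier (0.34, adjusted p = 0.0148), and CPT1B, a carnitine transferase on chromosome 22 (-0.31, adjusted p = 0.0343).

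Neighbouring genes limit some of these counts. MVK overlaps MMAB, CYP51A1 overlaps AKAP9, SREBF1 overlaps RAI1, FADS1 overlaps FADS2, GGPS1 overlaps ARID4B and SREBF2 overlaps SREBF2-AS1, each on the opposite strand. Whether counting used the strand is not given in the sources used here, so reads from such partners may not have been told apart. CYP51A1 and GGPS1 also overlap further annotated genes on their own strand, where the strand cannot separate reads. Their expected counts were fractional (9060.87 and 2288.35 in WT 1), so reads may have been shared and their counts are uncertain too.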

How the data were processed

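RNA-seq covered 3 WT and 3 THUMPD1 KO libraries of HEK-293T cells. Per the labels, the authors used STAR, RSEM and limma on hg38, with versions and strand setting not given in the sources used here. Deposited values were RSEM expected counts per gene, estimated by the authors and not normalized, and the study's methods name GENCODE 46. Here expected counts (rounded for edgeR and DESeq2) of genes that reached 1 CPM in 3 or more of the 6 libraries were quantile-normalized and tested with limma-voom (limma 3.58.1, R 4.3.3) on genotype, with Benjamini-Hochberg adjustment over all 15088 genes and a threshold of 0.05, after the study's methods. The fit was tested on simulated data. With 32225646 to 44099898 counts per library, 1 CPM was 32.2 to 44.1 counts. Chromosome, exon length and overlaps come from GENCODE v44 on GRCh38. Same-numbered libraries deviated together over all genes (r = 0.171, 0.147 and 0.138), so a replicate block was also fitted. Over the 33 members alone these r were -0.110, 0.364 and -0.318. All members were named, genes called without or with the block in full, and at most 3 of each other list by smallest adjusted p, of which 1 is not reported here. Members and lists were chosen with earlier results of these data known. Alternatives used edgeR 4.0.16, DESeq2 1.42.0, other scalings, filters and fewer libraries.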

Additional observations from a re-analysis of the deposited data

How the results depend on the processing

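None of the 12 called genes turned direction in the 17 alternatives, and the estimates that turned were near 0 and of genes without a call. For the 33 genes, 12 calls became 6 with no CPM filter (18.2% against 10.1% of the 31730 genes then tested). With sample quality weights they became 20 (60.6% against 36.5% of all genes). At an adjusted p under 0.01 they became 5 (15.2% against 13.8%, near the share of all genes). The replicate block gave 16 (48.5% against 35.1%), edgeR 13 (39.4% against 25.7%) and DESeq2 14 (42.4% against 24.3%). Removing the GC content and length trend gave 10 calls (30.3% against 29.6% of all genes) and, with the block, 11 (33.3% against 37.5%), and moved the median from -0.12 to -0.075. Leaving out libraries, where an arm kept 2 libraries, gave 6 to 21 calls for the 33 genes, the highest without both libraries of number 1 (added after seeing the data). The ranges were 1 to 8 from acetyl-CoA to squalene, 3 to 7 from squalene to cholesterol, 1 to 4 for SREBP control, 0 to 2 for fatty acid synthesis, 2 to 6 for SREBP processing, 0 to 4 for sterol trafficking, 1 to 5 for fatty acid oxidation and 2663 to 4884 over all genes. For isoprenoid use they were 4 to 5 and for further fatty acid genes 9 to 12.

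From acetyl-CoA to squalene, 3 calls became 5 with the block or DESeq2, 7 with quality weights and 1 at 0.01. From squalene to cholesterol, 4 became 7 with quality weights. For SREBP control, 2 became 1 with no filter or at 0.01 and 4 with quality weights. For fatty acid synthesis, 3 became 0 with no filter or at 0.01 and 1 with the trend removed, also with the block. For SREBP processing, 5 became 2 with no filter or at 0.01. For sterol trafficking, 2 became 1 with 1 CPM in all 6 libraries, no filter or DESeq2, 4 with quality weights and 0 at 0.01. At 0.01, isoprenoid use kept 2 calls, further fatty acid genes 7, fatty acid oxidation 1 and all genes 2083. Fatty acid oxidation had 2 with no filter and 8 with the block and the trend removed. The cause was not tested.

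SC5D turned to -0.017 with TMM, -0.019 with edgeR, -0.018 with DESeq2, -0.038 with quality weights, and -0.045 with the trend removed, without and with the block. ACACA turned to -0.017, -0.014 and -0.013 with TMM, edgeR and DESeq2 and to -0.0020 and -0.0021 with the trend removed. SCAP turned to 0.033 and ACSS2 to 0.010 and 0.011 with the trend removed. Without 1 or both libraries of a number, log2 fold changes ran from -0.14 to 0.045 for ACAT2, -0.25 to 0.033 for MSMO1, -0.085 to 0.012 for NSDHL, -0.047 to 0.036 for SC5D, -0.069 to 0.013 for SCAP, -0.061 to 0.027 for INSIG2, -0.055 to 0.022 for ACSS2, -0.032 to 0.069 for ACACA and -0.24 to 0.0081 for FADS2. Over the genes' other values, 423 kept sense and side of the threshold, 51 lost it and 49 gained it. With 3 libraries against 3, the median SE of a log2 fold change over all genes tested was 0.070.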
